A study of Bos taurus with 20 samples.

Results

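The genes described here handle the entry of fatty acids into cells and their first steps inside. They are CD36, LPL, FABP3, FABP4, FABP5, SLC27A1, SLC27A4, VLDLR, ACSL1 and ACSL4, 10 of the 33063 named genes in the count table. They were picked by symbol for their known roles, with earlier results of these data known. RNA was sequenced from 20 clonal cell populations, each grown from a single sorted mesenchymal stem cell (MSC) of bovine adipose tissue, and 1 library was made per clone. The 10 adipogenic (A) clones had formed lipid-filled adipocytes in differentiation tests, whereas the 10 non-adipogenic (N) clones had not. The authors had selected these A clones for the highest share of lipid-stained cells after differentiation. All clones were cultured in serum with bFGF and their RNA was taken before any adipogenic induction, so the values are those of undifferentiated cells. The cells came from visceral fat of Holstein Friesian x Aberdeen Angus calves in their first months of life. From animals 17 and 20 there was 1 clone of each kind, and from animals 22 and 23 there were 4 of each kind. Each clone descends from 1 cell and stands for that cell's progeny only. Clones are named below by animal and clone number, such as 17-57.

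Fatty acids reach fat cells mainly as triglyceride carried in lipoproteins. Lipoprotein lipase, encoded by LPL, releases fatty acids from these particles at the cell surface, and the VLDL receptor, encoded by VLDLR, binds the particles and helps to hold the lipase near them. The scavenger receptor CD36 and the transporters SLC27A1 and SLC27A4 move long-chain fatty acids across the plasma membrane. Inside the cell, the fatty acid binding proteins FABP3, FABP4 and FABP5 shuttle them through the cytosol, and the acyl-CoA synthetases ACSL1 and ACSL4 trap them as acyl-CoA. Of these synthetases, ACSL4 prefers arachidonic acid. CD36, LPL, FABP4, SLC27A1 and ACSL1 are classical targets of PPARG, the master transcription factor of adipogenesis.

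The libraries held 14615493 to 43111345 counts on named genes, and the N clone 22-18 was the deepest. Levels are given as CPM, the counts of a gene scaled to a common library size, with a TMM factor that corrects for composition. Gene length is not corrected for, so levels are compared between clones and not between genes. The mesenchymal markers CD44, ENG, NT5E, THY1, ITGB1, PDGFRA and PDGFRB were all high enough to be tested. Of these 7, 0 passed the test of A against N clones given below, which 20.6% of all genes passed. Some intervals were wide, such as a 95% interval of 0.577 to 3.86-fold for THY1 (edgeR), so like levels in both groups were not shown. The N clone 22-5 was at 0.507 CPM of NT5E and 0.394 CPM of THY1. N clones 22-5 and 22-9 also stood apart in mesothelial markers, with summed levels of 9179 and 6499 CPM over 7 genes, against at most 1093 CPM in any other clone. Because the RNA is from bulk cultures, fewer cells that express a gene and less RNA per cell cannot be told apart. Clones are the replicates of the tests below, and since most came from 2 animals, their p-values measure the spread among these clones.

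None of the 10 genes passed the test of A against N clones, although CD36 came close. The threshold was an adjusted p of 0.05 in edgeR's quasi-likelihood fit, with animal as a block and Benjamini-Hochberg adjustment over all genes. Among all 12900 genes tested, 20.6% passed it (10.3% higher and 10.3% lower in A clones), and 5.76% did so with a change of at least 2-fold (3.95% higher and 1.81% lower). A clones were above every N clone for 0.225% of genes and below every N clone for 0.093%, and for 0 of the 10. All 10 genes had passed the filter on low counts. At an unadjusted p under 0.05 there were 4 of the 10 (CD36, LPL, FABP3 and ACSL1), against 36.1% of all genes. The share of 0 in 10 was thus no higher than the background. With other tools the number was 2 in DESeq2's Wald test (CD36 and FABP3, where 27.3% of all genes passed) and 1 in limma-voom (CD36, where 21.2% passed). Without the animal block it was 1 (CD36, where 16.8% of all genes passed). With counts summed per animal and condition, which leaves 4 pairs, edgeR called 0% of 14669 genes, with CD36 at an adjusted p of 0.276, while 15.3% of all genes and 2 of the 10 (CD36 and FABP3) had an unadjusted p under 0.05. The median log2 fold change of the 10 genes was 0.32, against -0.01 over all genes, and 7 of the 10 had a positive value, against 48.8% of all genes. Several of the 10 varied widely among clones. With animal and condition taken out, the SD of log2 CPM was 2.12 for LPL, 1.44 for CD36 and 1.17 for FABP3, above that of 99.0%, 95.4% and 92.7% of genes tested. SLC27A1 was at the other end, at 0.231, below the median of 0.317 over all genes.

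**Figure D1:**
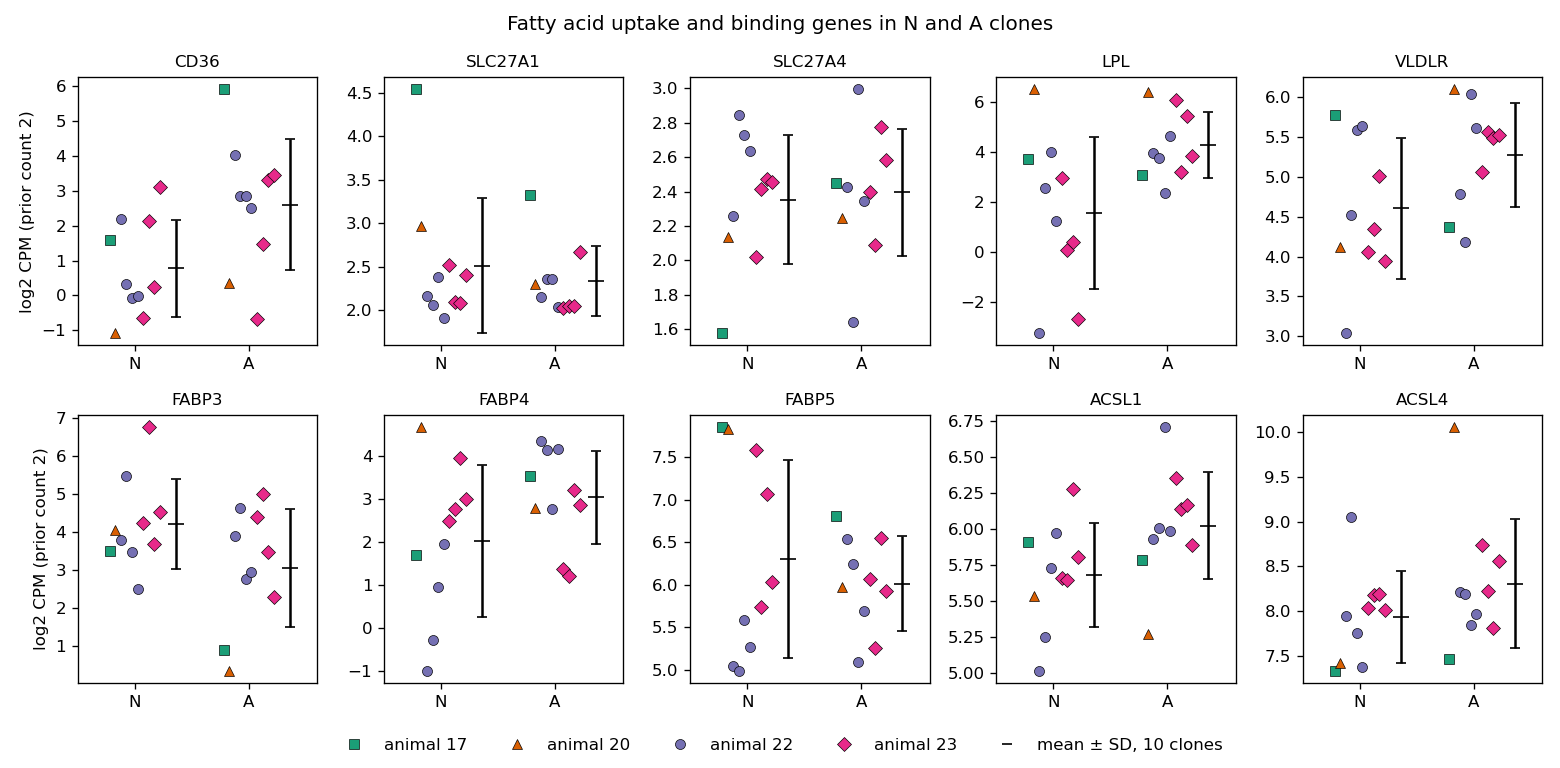
Level of each gene in each clone, as log2 CPM with a prior count of 2, in N and A clones. Points are clones, with color and shape marking the animal, and bars give the mean and SD over 10 clones. A and N clones overlapped for all 10 genes, and LPL reached far lower in N clones (0 CPM in clone 22-5) than in A clones (5.05 CPM at the lowest).

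**Figure D2:**
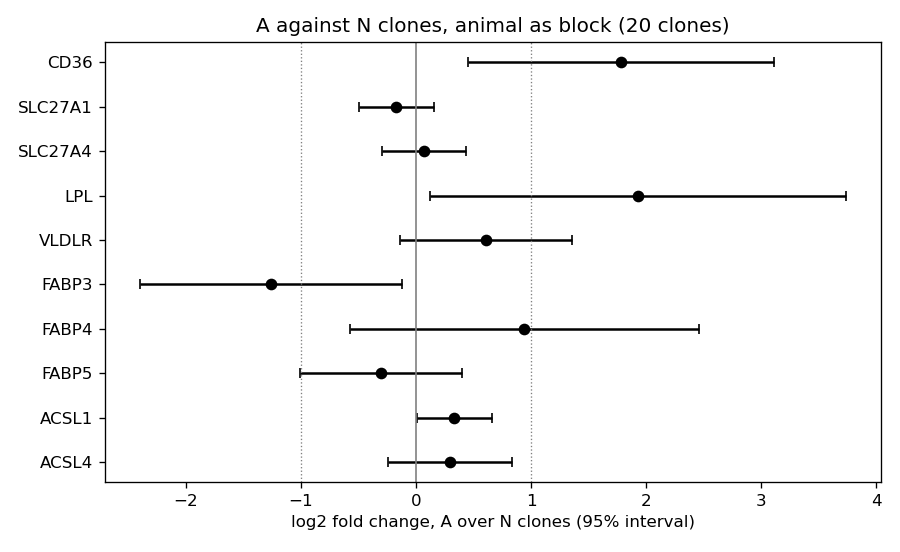
Log2 fold change of A over N clones with its 95% interval from edgeR's fit over 20 clones with animal as a block. Dotted lines mark a 2-fold change. The intervals of CD36, LPL and ACSL1 lay above 0 and that of FABP3 below it, before adjustment over all genes.

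CD36 had the smallest p of the transport genes. N clones ranged from 0.368 to 8.58 CPM with a median of 1.11, and A clones from 0.523 to 60.2 CPM with a median of 7.12. The groups overlapped, and 4 of 10 A clones lay above every N clone. Its fitted change was 3.44-fold (95% interval 1.37 to 8.64, adjusted p = 0.0539, edgeR). It crossed the threshold without the animal block (adjusted p = 0.0394), in DESeq2 (0.00874) and in limma-voom (0.0137), all with A clones higher. Of the 20 fits that left out 1 clone it crossed in 4, those without N clone 22-5, N clone 23-74, A clone 23-14 or A clone 23-62. Their adjusted p-values were 0.0454, 0.0194, 0.0259 and 0.0425 in edgeR's test, and the largest of the 20 was 0.0989. In all, 7 of 35 alternative fits crossed. In animal 23 alone the log2 change was 0.72 (adjusted p = 0.675, edgeR).

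In each of the 4 animals the mean log2 CPM of CD36 was higher in A than in N, as it was for 15.7% of all genes. The clones of animal 22 were split, with N clones at 4.45, 1.14, 0.850 and 0.889 CPM and A clones at 16.2, 7.10, 7.14 and 5.59 CPM. There was no such split in animal 23, with N clones at 0.530, 4.28, 1.08 and 8.58 CPM and A clones at 0.523, 2.69, 9.85 and 10.8 CPM. Every A clone of animal 22 was above every N clone of that animal, as for 7.01% of genes tested (5.41% were the other way round). The highest and the lowest A clone were both far from the median, at 60.2 CPM in clone 17-57 and 0.523 CPM in clone 23-14, which held 885 and 8 counts.

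PPARG was set beside CD36 in the same clones. PPARG itself passed the test, with medians of 0.354 CPM in N and 8.83 CPM in A (log2 change 3.77, adjusted p = 0.00486, edgeR). A clone 17-57 had both the highest CD36 and the highest PPARG, at 19.8 CPM. A clone 22-121 had nearly as much PPARG, 19.6 CPM, with 5.59 CPM of CD36. Among N clones, 22-18 had the most PPARG, 6.27 CPM, and its CD36 was at 0.889 CPM. A clones 17-57 and 22-121 thus had like PPARG levels, with CD36 above and below the A median of 7.12 CPM. A relation between CD36 and PPARG was not tested. The lowest PPARG level in A clones was 4.33 CPM, in clone 22-11, which had the second highest CD36 of all clones.

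Neither SLC27 transporter passed the test. SLC27A4, which encodes FATP4, ranged from 2.88 to 7.07 CPM in N clones and from 3.02 to 7.86 CPM in A clones, with medians of 5.31 and 5.21. Its fitted change was 1.05-fold with a 95% interval of 0.815 to 1.35 (adjusted p = 0.803, same test), so a 2-fold change in either direction lay outside the interval. SLC27A1, which encodes FATP1, ranged from 3.66 to 23.2 CPM in N clones and from 3.99 to 9.92 CPM in A clones, with medians of 4.75 and 4.603. The fitted change was 0.888-fold (95% interval 0.708 to 1.11, adjusted p = 0.440). Both clones of animal 17 were the highest of their group, N clone 17-23 at 23.2 CPM against at most 7.72 in the other N clones, and A clone 17-57 at 9.92 CPM against at most 6.29 in the other A clones. Within animals 22 and 23, SLC27A1 stayed between 3.66 and 6.29 CPM in all 16 clones.

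LPL encodes the secreted lipase. Its spread with animal and condition taken out was the largest of the 10 genes, although among A clones alone CD36 and FABP3 varied more (SD of log2 CPM 1.87 and 1.55 against 1.34). N clones ranged from 0 to 90.4 CPM with a median of 3.95, and A clones from 5.05 to 84.0 CPM with a median of 14.7. All 10 A clones were above the N median, and 5 of 10 N clones lay below every A clone, but the highest level was in N clone 20-15. The fitted change was 3.81-fold with a wide 95% interval of 1.09 to 13.4 (adjusted p = 0.115, edgeR), and without the animal block the log2 change was 1.06 (adjusted p = 0.434) against 1.93 with it. The animals differed in their LPL values. In animal 23, N clones were at 7.65, 0.945, 1.198 and 0.0485 CPM and A clones at 66.7, 8.99, 43.6 and 14.1 CPM, so that every A clone was above every N clone, as for 10.2% of genes tested (7.95% were the other way round). N clone 23-74, the lowest of these, held a single LPL count. In animal 22, N clones were at 0, 5.69, 15.6 and 2.21 CPM and A clones at 15.2, 13.3, 5.05 and 24.9 CPM, with overlap. The pairs of the other animals were close, at 13.04 CPM in N and 8.36 CPM in A in animal 17, and at 90.4 CPM in N and 84.0 CPM in A in animal 20. Fitted on its own, animal 23 had a log2 change of 3.77 with an adjusted p of 0.0886 (edgeR). The A against N difference of LPL was 2.45 log2 units larger in animal 23 than in animal 22, with a 95% interval of -1.10 to 5.998 (adjusted p = 0.691 for the interaction term, edgeR).

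VLDLR, the receptor for triglyceride-rich particles, ranged from 8.11 to 54.8 CPM in N clones and from 18.0 to 68.3 CPM in A clones, with medians of 21.6 and 45.2. Of 10 A clones, 2 lay above every N clone, and 4 N clones lay below every A clone. The fitted change over all 20 clones was 1.52-fold (95% interval 0.907 to 2.56, adjusted p = 0.226, edgeR). In animal 23, N clones were at 16.5, 20.2, 32.2 and 15.3 CPM and A clones at 33.2, 47.3, 44.6 and 45.9 CPM. Every A clone there was above every N clone, as for 10.2% of genes tested (7.95% were the other way round). VLDLR passed the test in these 8 clones on their own, with a log2 change of 1.03 (adjusted p = 0.0469, edgeR), where 6.22% of all genes passed. In animal 22, N clones were at 8.11, 22.9, 47.8 and 49.6 CPM and A clones at 27.4, 18.0, 65.4 and 48.9 CPM, and the groups overlapped. The pairs of animals 17 and 20 lay in opposite directions, 54.8 CPM in N and 20.5 CPM in A in animal 17, and 17.3 CPM in N and 68.3 CPM in A in animal 20. The A against N difference was not shown to differ between animals 22 and 23, at 0.71 log2 units (95% interval -0.76 to 2.18, adjusted p = 0.798, edgeR).

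**Figure D3:**
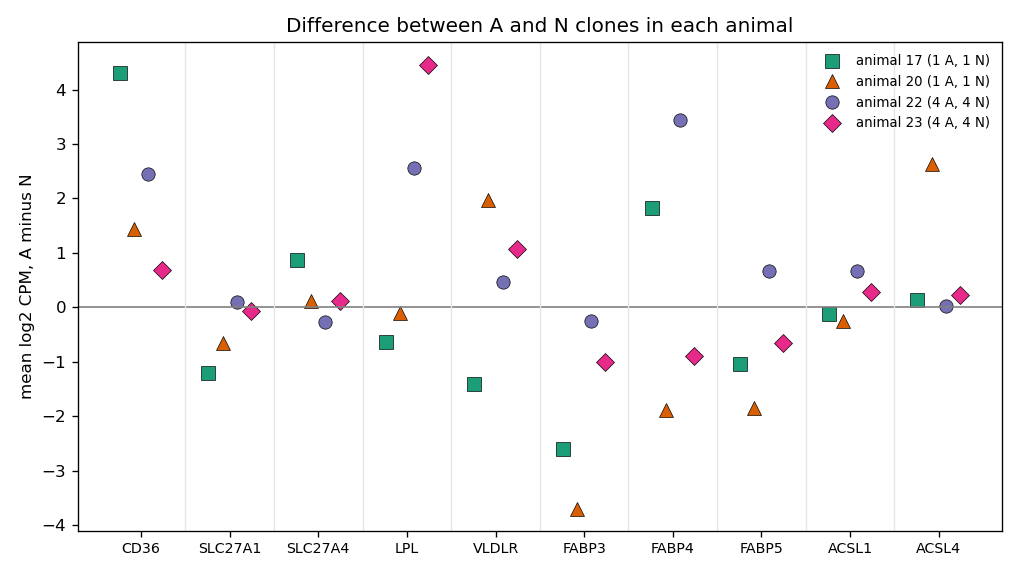
Difference of mean log2 CPM (prior count of 2), A minus N, for each gene in each animal. Points are animals, with 1 A and 1 N clone in animals 17 and 20 and 4 of each in animals 22 and 23. CD36 and ACSL4 lay above 0 in all 4 animals and FABP3 below 0 in all 4, while FABP4 ranged from -1.89 in animal 20 to 3.44 in animal 22.

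None of the 3 fatty acid binding proteins passed the test over all clones. FABP3, the heart-type protein, ranged from 5.64 to 109 CPM in N clones and from 1.17 to 31.9 CPM in A clones, with medians of 15.1 and 9.43. The groups overlapped, and 3 of 10 A clones were lower than all N clones. The fitted fold was 0.417 (95% interval 0.190 to 0.918, adjusted p = 0.103, edgeR), and DESeq2 put it past the threshold (log2 change -1.27, adjusted p = 0.0348). Mean log2 CPM was lower in A clones in all 4 animals, as for 17.4% of all genes. The pairs of animals 17 and 20 were the most apart, at 11.3 CPM in N and 1.77 CPM in A in animal 17, and at 16.5 CPM in N and 1.17 CPM in A in animal 20. Within animal 22 the clones overlapped throughout, from 5.64 to 44.8 CPM in N and from 6.68 to 24.8 CPM in A. N clone 23-22, at 109 CPM, was the highest of all.

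FABP4 encodes the adipocyte protein also known as aP2, and its A against N values had opposite signs in animals 22 and 23. Over all clones it ranged from 0.394 to 25.3 CPM in N, with a median of 4.604, and from 2.201 to 20.1 CPM in A, with a median of 8.13, and the fitted change of 1.92-fold did not pass the test (95% interval 0.673 to 5.50, adjusted p = 0.357, edgeR). In animal 22, N clones were at 0.394, 0.719, 1.83 and 3.73 CPM and A clones at 20.1, 17.4, 6.68 and 17.7 CPM, a mean of 1.67 ± 1.51 (SD, n = 4) against 15.5 ± 5.98 (SD, n = 4). Every A clone was above every N clone there, as for 7.01% of genes tested (5.41% were the other way round). In animal 23, N clones were at 5.47, 6.68, 15.4 and 7.86 CPM and A clones at 2.48, 2.201, 9.13 and 7.13 CPM, a mean of 8.86 ± 4.50 (SD, n = 4) against 5.23 ± 3.44 (SD, n = 4), and 2 A clones were lower than all 4 N clones. Animals 17 and 20 were also split, with 3.15 CPM in N and 11.5 CPM in A in animal 17, and 25.3 CPM in N and 6.75 CPM in A in animal 20.

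The difference between the animals was tested by an interaction term over the 16 clones of animals 22 and 23. For FABP4 the A against N difference was 3.93 log2 units lower in animal 23 than in animal 22 (the term was -3.93, SE 0.920, 95% interval -5.90 to -1.96). Its adjusted p was 0.318 in edgeR, where 0 of the 10 genes and 0.031% of all genes passed, and its unadjusted p was 0.000758. DESeq2 called it (-3.95, adjusted p = 0.00349), with 0.898% of all genes called. The unadjusted p of FABP5 for this term was 0.0176 (edgeR). The share of all genes with an unadjusted p under 0.05 for this term was not computed. Within animal 22 alone, FABP4 had a log2 change of 3.16 (adjusted p = 0.0817, edgeR, where 1.15% of all genes passed), and within animal 23 alone -0.75 (adjusted p = 0.394, edgeR). N clones 22-5 and 22-9, which stood apart in mesothelial markers, also had the lowest FABP4 levels of all clones, at 0.394 and 0.719 CPM. When they were left out of the fit over all animals, the FABP4 log2 change fell to 0.23 (adjusted p = 0.826, edgeR). Leaving out the lowest N values raises the N level by itself, and the part of the mesothelial markers was not tested.

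**Figure D4:**
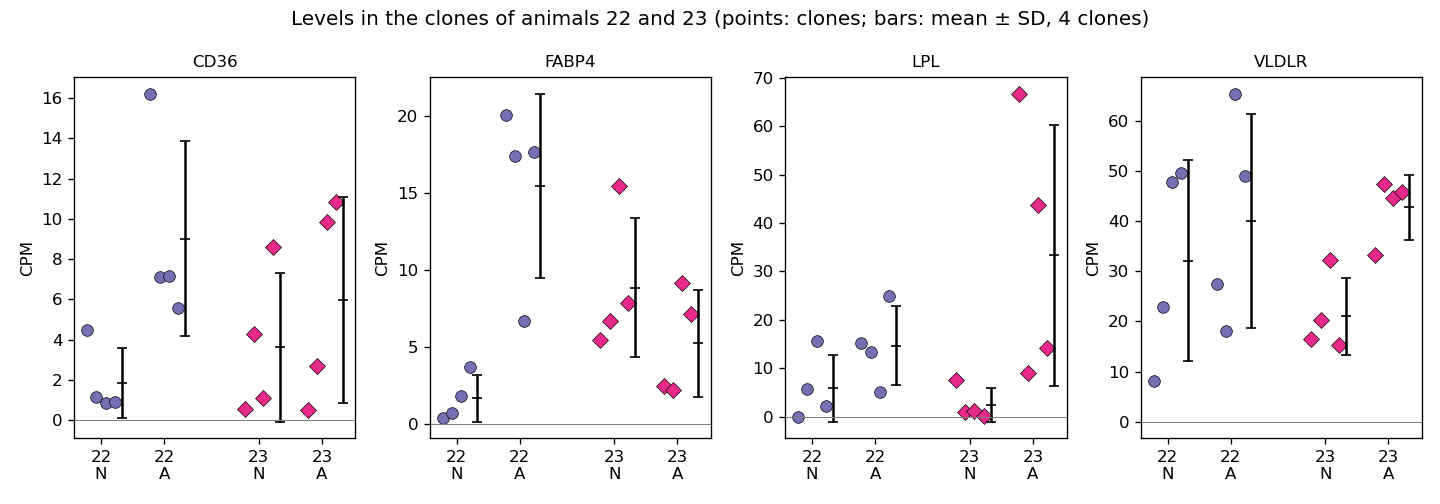
Level of CD36, FABP4, LPL and VLDLR in CPM (linear axis) in the N and A clones of animals 22 and 23, with points for clones and bars for the mean and SD of 4 clones. FABP4, like CD36, was higher in all 4 A clones than in all 4 N clones of animal 22 and not in animal 23, whereas LPL and VLDLR were separated in animal 23 and not in animal 22. Such a separation with A higher was found for 7.01% of genes tested in animal 22 and 10.2% in animal 23.

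FABP5, the epidermal-type protein that many cell types express, ranged from 31.6 to 232 CPM in N clones and from 34.1 to 112 CPM in A clones, with medians of 59.4 and 65.1. The fitted fold was 0.810 (95% interval 0.498 to 1.32, adjusted p = 0.534, edgeR). A clones were the more even group, and 4 of 10 N clones lay above every A clone. By animal, FABP5 had the same signs as FABP4 in animals 20, 22 and 23. Its means were 37.8 ± 7.49 CPM in N against 63.6 ± 25.9 CPM in A in animal 22, and 111 ± 64.7 CPM in N against 64.9 ± 22.8 CPM in A in animal 23 (SD, n = 4 each). The interaction term was -1.53 (SE 0.570, adjusted p = 0.464, edgeR). FABP4 and FABP5 are neighbours in the bovine genome, where the order is FABP5, PMP2, FABP9, FABP4 and FABP12 with no other gene between them in the RefSeq annotation of ARS-UCD2.0.

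The balance of paired genes was also compared within each clone, as the log2 ratio of their counts, which does not depend on the library size. FABP4 over FABP5 was -4.32 ± 1.33 in N clones and -2.99 ± 0.963 in A clones (SD, n = 10 each), a difference of 1.33 (two-sided exact permutation within animals, p = 0.0272, adjusted p = 0.109 over 4 ratios). The 4 highest ratios were those of A clones, all of them from animal 22. The difference was 2.90 in animal 17 and 2.84 in animal 22, but -0.04 in animal 20 and -0.24 in animal 23, so it rested on 2 animals. FABP3 over FABP5 differed by -0.86 (exact permutation p = 0.172, adjusted p = 0.345) and had the same sign in all 4 animals. ACSL1 over ACSL4 differed by -0.03 (exact permutation p = 0.937), and SLC27A1 over SLC27A4 by -0.22 (exact permutation p = 0.492, adjusted p = 0.655).

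**Figure D5:**
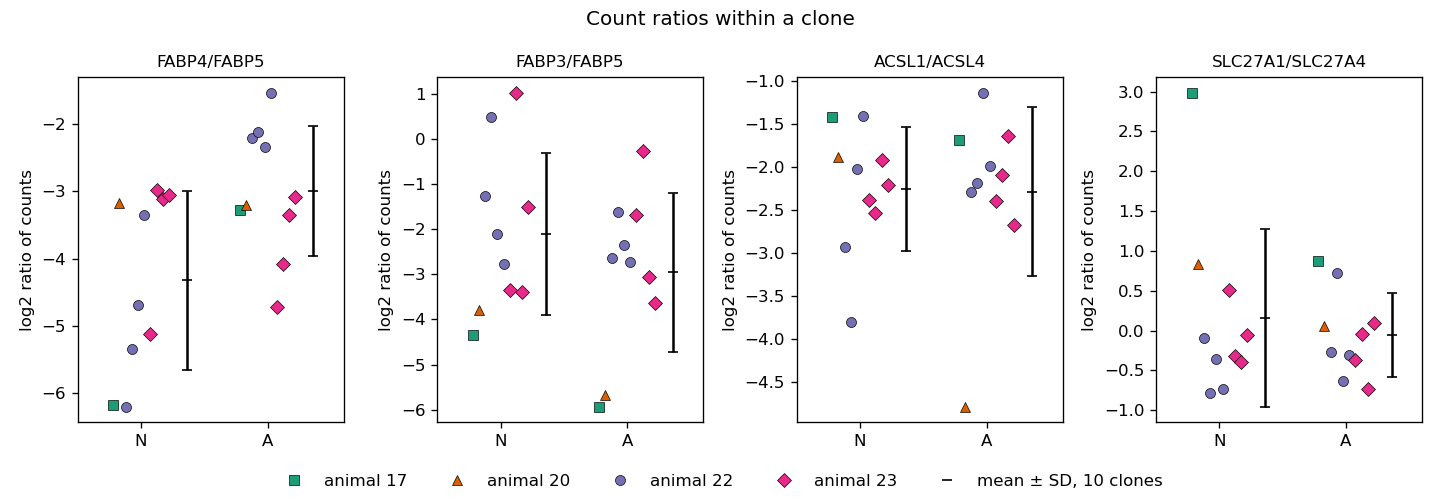
Log2 ratio of counts (each plus 1) of 4 gene pairs in each clone, with color and shape marking the animal and bars the mean and SD of 10 clones. The 4 highest FABP4 to FABP5 ratios are the A clones of animal 22, and A clone 20-106 is the lowest in the ACSL1 to ACSL4 ratio, at -4.79.

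ACSL1, the main acyl-CoA synthetase of adipocytes, had a spread among clones near that of the median gene (SD of log2 CPM 0.336 against 0.317, with animal and condition taken out). N clones ranged from 32.2 to 77.6 CPM with a median of 51.6, and A clones from 38.5 to 104 CPM with a median of 63.8. Although 9 of 10 A clones were above the N median, the fitted change was only 1.26-fold (95% interval 1.01 to 1.58, adjusted p = 0.127, edgeR), so that a 2-fold change lay outside the interval. Without N clones 22-5 and 22-9, which were the lowest N clones at 32.2 and 37.9 CPM, the log2 change was 0.19 (adjusted p = 0.353, edgeR) against 0.33 with them. In animals 17 and 20 the A clone was slightly lower than the N clone, at 55.1 against 60.0 CPM and 38.5 against 46.1 CPM.

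ACSL4, the arachidonate-preferring synthetase, ranged from 161 to 531 CPM in N clones and from 177 to 1064 CPM in A clones, with medians of 252 and 295. The fitted change was 1.23-fold (95% interval 0.847 to 1.79, adjusted p = 0.413, edgeR). A clone 20-106, at 1064 CPM, stood far above the next A clone, 23-14 at 429 CPM. N clone 22-9, at 531 CPM, stood likewise above the next N clone. The mean log2 CPM was higher in A than in N in each of the 4 animals, as for 15.7% of all genes, by 2.64 in animal 20 but by at most 0.23 in the others. In animal 22 the difference was 0.026, and the fit of that animal alone turned it to -0.12. Clone 20-106 was also the highest of all clones in VLDLR, at 68.3 CPM, and the lowest in FABP3, at 1.17 CPM.

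Other genes of fatty acid handling were read from 6 lists, and 8 of their 59 tested members passed the test, 6 higher and 2 lower in A clones, which was below the 20.6% of all genes. Of 6 tested other fatty acid and acyl-CoA binding proteins, 0 were higher and 1 was lower. That gene was DBI, the acyl-CoA binding protein, at 177 ± 58.9 CPM in N and 104 ± 18.4 CPM in A (SD, n = 10 each), with a log2 change of -0.74 (SE 0.176, adjusted p = 0.00948, edgeR). Of 7 other SLC27 transporters and acyl-CoA synthetases, 1 was higher, ACSL6, with a median of 1.70 CPM in N and 11.0 CPM in A and a log2 change of 1.73 (SE 0.487, adjusted p = 0.0207, edgeR). A clone 20-106 had the most ACSL6 as well, at 108 CPM. None of the others in these 2 lists passed the test.

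Of 7 tested partners of lipoprotein lipase, 1 was higher in A clones, FURIN, a protease that cleaves among other targets the lipase and its ANGPTL inhibitors, at 148 ± 25.9 CPM in N and 242 ± 119 CPM in A (log2 change 0.69, SE 0.235, adjusted p = 0.0467, edgeR). ANGPTL4, an inhibitor of the lipase and a PPAR target, had a median of 2.70 CPM in N and 10.1 CPM in A and did not pass the test (log2 change 2.00, adjusted p = 0.0691, edgeR), though DESeq2 called it. The protease PCSK6, a relative of FURIN, had a median of 68.1 CPM in N and 18.1 CPM in A and did not pass either (log2 change -1.36, adjusted p = 0.107, edgeR), and DESeq2 called it as well. GPIHBP1, which carries the lipase across the capillary wall, had 1 count in 1 N clone and 1 count in 1 A clone.

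Of 10 tested other lipoprotein and scavenger receptors, 1 was higher, SCARB2, a lysosomal relative of CD36, at 586 ± 175 CPM in N and 796 ± 183 CPM in A (log2 change 0.45, SE 0.143, adjusted p = 0.0338, edgeR). LRP1, a broad receptor for lipoprotein remnants, had a log2 change of 0.13 and did not pass. OLR1, a receptor for oxidised LDL, varied from 0 to 528 CPM among clones and did not pass (log2 change 1.70, adjusted p = 0.147, edgeR).

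The genes of CD36 trafficking and caveolae had 2 of 12 tested members higher in A clones. One was LYN, a kinase that acts downstream of CD36, at 0.517 ± 0.531 CPM in N and 2.54 ± 1.07 CPM in A, with 9 of 10 A clones above every N clone (log2 change 2.69, SE 0.448, adjusted p = 0.00143, edgeR). The other was ZDHHC4, which palmitoylates CD36, at 53.5 ± 7.31 CPM in N and 64.4 ± 6.07 CPM in A (log2 change 0.27, SE 0.086, adjusted p = 0.0361, edgeR). LYN was thus a low gene, with at most 77 counts in any clone.

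Mitochondrial fatty acid oxidation had 17 tested members, of which 1 was higher and 1 lower. ACADL, the long-chain acyl-CoA dehydrogenase, was at 7.71 ± 1.55 CPM in N and 14.2 ± 5.16 CPM in A, with 8 of 10 A clones above every N clone (log2 change 0.86, SE 0.203, adjusted p = 0.00904, edgeR). ETFB, a subunit of the flavoprotein that takes electrons from the dehydrogenases, was at 71.7 ± 13.4 CPM in N and 56.2 ± 9.41 CPM in A (log2 change -0.35, SE 0.089, adjusted p = 0.0138, edgeR). The calls of ACADL, ACSL6, DBI, ETFB and LYN held in all 20 fits that left out 1 clone, whereas that of FURIN was lost in 13, SCARB2 in 11 and ZDHHC4 in 10 of them (adjusted p up to 0.101, 0.0661 and 0.0800, edgeR). Without N clones 22-5 and 22-9 together, these 3 genes and ACSL6 (adjusted p = 0.0538, edgeR) missed the threshold. The median log2 changes of the 6 lists lay between -0.11 and 0.21.

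CD36, LPL and FABP4 are also expressed by mature adipocytes, macrophages, endothelial cells and muscle, and the markers of these cells were read in the same clones. Among all genes tested, 10.3% passed as higher and 10.3% as lower in A clones. Of 5 tested mature adipocyte markers 2 were higher in A clones, CIDEA and PLIN1. The other 3 did not pass and differed in sign. LIPE had a log2 change of 0.87, CIDEC of -0.64 and GPD1 of -0.16 (adjusted p = 0.0873, 0.129 and 0.668, edgeR). The summed level over 11 genes was 7.83 to 14.9 CPM in N and 12.2 to 23.9 CPM in A. The adipokine gene ADIPOQ had at most 42 counts in any clone, and RETN had 0 in all. Of 2 tested macrophage markers, both were higher, CD68 and MRC1, and the sum over 11 genes was 1.62 to 13.7 CPM in N and 3.59 to 23.0 CPM in A, with C1QA, C1QB and C1QC at 0 in all clones. The macrophage receptor gene CSF1R, too low for the filter, had 22 counts over the N clones and 176 over the A clones, from 0 to 0.254 CPM in N and from 0.475 to 2.38 CPM in A, without overlap. CD163, also untested, was at 0 to 1.68 CPM in N and 0 to 3.41 CPM in A. The untested PTPRC had at most 7 counts in any clone, and TYROBP at most 1. CD14 was at 0 to 6.56 CPM in N and 0.0365 to 4.87 CPM in A, and AIF1 at 0 to 0.797 CPM in N and 0.0612 to 1.03 CPM in A. Of 5 tested endothelial markers 1 was higher, ERG, with a sum over 10 genes of 1.47 to 54.7 CPM in N and 9.63 to 106 CPM in A. PECAM1, a tested endothelial marker, was at 0 to 7.17 CPM in N and 0.136 to 16.2 CPM in A and did not pass (log2 change 2.49, adjusted p = 0.0675, edgeR). VWF, EMCN and TEK did not pass either (log2 changes 0.59, 0.37 and -0.03, adjusted p = 0.440, 0.736 and 0.947, edgeR). The untested CDH5, KDR, TIE1 and ESAM were at no more than 0.490 CPM in any clone, and CLDN5 was at 0 in all clones. The only muscle marker tested, DES, did not pass the test (log2 change 2.12, adjusted p = 0.0677, edgeR). The sum over 8 genes was 0.733 to 130 CPM in N and 20.2 to 673 CPM in A. DES alone was at 0.123 to 128 CPM in N and 19.9 to 668 CPM in A, so the high sums were mostly this gene. MYOD1 was at 0 in all clones, and the untested TNNT2 was at 0 to 0.127 CPM in N and 0 to 4.55 CPM in A. Of 10 proliferation genes 7 were lower in A clones, and their sum was 114 to 604 CPM in N and 18.0 to 371 CPM in A. Of 6 tested mesothelial markers 1 was lower, MSLN. The part of any of these in the values of the 10 genes was not tested.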

How the data were processed

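RNA was extracted from 20 clones, libraries were made with a directional kit and sequenced as paired ends, and the authors trimmed the reads (Trimmomatic 0.36), aligned them to ARS-UCD1.2 (STAR 2.5.2b) and counted unique exon reads (featureCounts of Subread 1.5.2). The strand setting is not given in the sources used here. The deposited values are raw counts per gene. Reads that fit several places are dropped, which can lower genes with close copies. The 1 unnamed row (0.113 to 0.333% of counts) was left out, and library totals were 14615493 to 43111345.

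Groups were taken from the labels. Counts were tested in edgeR 4.0.16 (R 4.3.3) with its robust quasi-likelihood F test, TMM scaling, the default low-count filter and animal as a block, and p-values were adjusted by Benjamini-Hochberg over all 12900 genes. A gene was called at an adjusted p under 0.05. SEs were taken from the F statistic, and CPM from TMM-scaled totals. The blocks came from the animals in the labels, and clones of one animal deviated together (correlations between 0.193 and 0.440 for the 4 animals). Ratios used log2(count + 1) and exact permutation within animals over 19600 arrangements. Alternatives included DESeq2 1.42.0, limma-voom (limma 3.58.1), other scalings and filters, and leaving out clones or animals. The fits were tested on simulated data first. The 10 genes and the lists were chosen with earlier results of these data known. All 10 genes are described, and from the other lists those called, and a few partners with known roles picked after their values were seen, are named. The result of 1 gene of these lists is not reported here.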

Additional observations from a re-analysis of the deposited data

Results flagged for a closer look

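Within each group of 10 clones, the values were put on the log2 scale, and the gap between the farthest clone and its neighbour was divided by the range of the group, and 9 of 48 sets of values exceeded Dixon's 95% critical value, where chance gives about 1 in 20. Levels below are CPM, while the ratios of gap to range are those of the log2 values. SLC27A1 did so in both groups through animal 17, in N clone 17-23 (23.2 CPM against 7.72 in the next clone, ratio 0.598) and in A clone 17-57 (9.92 against 6.29 CPM, ratio 0.503), and the ratio of SLC27A1 to SLC27A4 did so in N clone 17-23 (ratio 0.569). ACSL4 did so in N clone 22-9 (531 against 293 CPM, ratio 0.497) and in A clone 20-106 (1064 against 429 CPM, ratio 0.507). The same A clone stood apart in ACSL6 (108 against 21.1 CPM, ratio 0.522) and in the ratio of ACSL1 to ACSL4 (ratio 0.580). ACADL was low in N clone 23-23 (4.13 against 6.86 CPM, ratio 0.586). The total count stood apart in N clone 22-18 (43111345 counts, ratio 0.574).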

How the results depend on the processing

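Of the 10 genes, 0 were called in the fit with animal as a block, and the number was 1 without the replicate block (CD36), 2 in DESeq2 (CD36 and FABP3), 1 in limma-voom (CD36), 1 in animal 23 alone (VLDLR) and 0 to 1 when each clone was left out in turn (CD36, without N clone 22-5, N clone 23-74, A clone 23-14 or A clone 23-62). With counts summed per animal and condition, 0 of all 14669 genes were called in edgeR (2243 had an unadjusted p under 0.05), so the calls in the other lists were lost too. The interaction of condition and animal called 1 of the 10 genes in DESeq2 (FABP4) and 0 in edgeR. Leaving out the animal block changed no other call among the 10, and of the genes in the 6 other lists it left 7 called in place of 8, with ACSL6 and SCARB2 lost and STAB1 gained. Without the filter on low counts, 10 of 80 genes of these lists were called, where 11.8% of all genes passed. ACBD7, FABP12 and PMP2 were among those gained, and FURIN and ZDHHC4 were lost. With each clone left out, 6 to 12 genes of these lists were called. The direction turned for FABP4 in animal 23 alone (log2 change -0.75) and without animal 22 (-0.57), for FABP5 in animal 22 alone (0.74) and without animal 23 (0.0515), for SLC27A1 in animal 22 alone (0.0915) and in animals 22 and 23 together (0.0195), for ACSL4 in animal 22 alone (-0.12), and for SLC27A4 in animal 22 alone (-0.22), without animal 17 (-0.0205) and in animals 22 and 23 together (-0.0379). With each clone left out, SLC27A4 lay between -0.0209 and 0.157 and the ACSL1 to ACSL4 ratio difference between -0.228 and 0.270, while CD36 lay between 1.52 and 2.19, LPL between 1.64 and 2.501 and FABP3 between -1.48 and -0.81. The cause was not tested. The fits without N clones 22-5 and 22-9, with animals 22 and 23 together, and of the lists without each clone in turn were added after the data had been seen. Low genes set the depth limit: LPL had 0 counts in one clone, CD36 as few as 6 and FABP4 as few as 7.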

Other observations

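Some relatives of the fatty acid binding proteins were too low for the filter. FABP12, the neighbour of FABP4, had 0 counts in all 10 N clones, but 9 of 10 A clones held a count, with 29 counts in total and at most 8 in one clone. With counts pooled over clones, the ratio of A to N was 10.6 when N was set at 3 counts over the group. This ratio takes no account of the spread among clones. PMP2, the myelin fatty acid binding protein, which lies between FABP5 and FABP4, had 0 counts in N clones and 11 in 5 A clones, with at most 4 in any clone. The same pooled ratio was 4.02, again without the spread among clones. FABP9, from the same stretch, had 1 count in 1 N clone. ACBD7, an acyl-CoA binding relative of DBI, held 68 counts over N clones (3 to 12 each) and 228 over A clones (10 to 56 each). For ACBD7, 9 of 10 A clones were above every N clone. The counts of FABP12, PMP2 and FABP9 are a few reads per clone at most. In the fit without the filter on low counts, ACBD7, FABP12 and PMP2 passed the threshold (edgeR).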
